A study of Drosophila melanogaster with 8 samples.

Results

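The genes that flank Ldh on chromosome arm 3L of Drosophila melanogaster were examined in larvae with and without a working Ldh gene. A gene belonged to the window when its midpoint lay between 5500000 and 7000000 on 3L in the BDGP6 genome, a stretch of 1500 kb that holds Ldh at 3L:6259105-6262694 on the minus strand. The rule used position alone and no measured value, but it was set with earlier results of these data known. The window held 205 of the 17445 features in the count files, a feature being 1 FlyBase gene identifier. Of these, 137 lay at lower coordinates than Ldh (here called below), 67 at higher coordinates (above), and 1 was Ldh itself. By type, 164 were protein-coding genes, 35 noncoding RNA genes, 5 small nucleolar RNA genes and 1 a pseudogene.

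RNA was sequenced from whole larvae in the middle of the second instar, 25 larvae to a sample, after 60 hours of growth at 25 °C on molasses agar with yeast paste. The mutant group had 4 libraries of w[1118]; Ldh[16/17] larvae, numbered 1, 2, 3 and 6, and the control group had 4 libraries of w[1118]; Ldh[precise] larvae, numbered 1, 2, 5 and 6. Both groups therefore carried w[1118]. The study describes its Ldh mutants as carrying 2 different mutant alleles of the gene, Ldh[16] on 1 chromosome and Ldh[17] on the other, and a precise excision is a chromosome from which an inserted element has left with the gene intact. Separate cultures are not stated in the labels, so p-values cover only sample-to-sample spread, part of which may be technical.

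Lactate dehydrogenase turns pyruvate into lactate and restores NAD+ for glycolysis, and fly larvae express it strongly while they grow. The flanking genes bear on the question of whether reads differ between mutant and control elsewhere around the altered locus. The window holds genes of many kinds: digestive serine proteases of the Jonah 65A group, the 65A cluster of cuticle protein genes that build the larval exoskeleton, ABC transporters, assembly factors of the mitochondrial respiratory chain, and antisense RNA genes.

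Between 371700 and 560865 reads per library were assigned to a feature, which was 1.24% to 1.62% of all lines counted, and 65.1% to 77.2% fell in no feature. The strand setting of the counting is not given, so the strand from which a feature's reads come cannot be told. Lines marked ambiguous were 0.0255% to 0.0350% of a file. The feature asRNA:CR45831, with 1317 of its 1384 exon bases shared with Ppat-Dpck on the other strand, held 6681 reads. Within the window, 58.5% of members with opposite-strand exon passed the expression filter, against 3.05% of the others. The opposite-strand partner of a described feature is named from 50 bp of shared exon. If the counting took the strand opposite to that of the library, the values of every feature, Ldh and Surf1 included, would be reads from its other strand. This was not tested. In pooled whole larvae, fewer cells of a type and less RNA per cell cannot be told apart either. As checks on the tissue, 4 of 5 muscle markers were found, all with reads. Of the 4 fat body markers 1, Fbp1, had 0 reads in every library, and of the 4 salivary gland markers 3 did, Sgs3, Sgs4 and Sgs7. In the other lists every marker had reads. The 4 hemocyte markers summed to 143 to 177 CPM (reads scaled to a common library size with TMM factors) in mutants and 205 to 249 in controls. This list, made of Hml, Pxn, Col4a1 and vkg, was the only one whose ranges did not overlap. Over all features tested, the groups did not overlap in 9.54%. In mutants and controls, muscle gave 1360 to 1820 and 1470 to 1860, and nervous system 1920 to 2120 and 2060 to 2540. Fat body gave 0 to 15.1 and 0 to 7.32, salivary gland 0 to 4.15 and 0, and midgut 4.57 to 26 and 7.79 to 24.4. The midgut list includes Jon65Aiv and Jon65Aiii, which are members of the window, so it is not a check independent of them. Epidermis gave 10.4 to 27.4 and 10.4 to 23.3, and Malpighian tubule 6.86 to 17.5 and 7.79 to 14.6. No marker was called, and the part of these levels in the results was not tested. Mutant library 3 had the most features with a read, 8217 against 7113 to 8016 in the other 7, and 164 features were called without it against 82 with it.

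Ldh was read in every control library and in no mutant library. The mutants had 0, 0, 0 and 0 reads, and controls 1, 2, 5 and 6 had 4, 3, 5 and 1. The groups did not overlap, and the mean control level was 7.34 ± 3.34 CPM (SD, n = 4). Set against 3 reads in all mutants together, the most that a count of 0 allows, the mutant level per assigned read was at least 4.65-fold lower. This bound covers counting error only. The difference reached the smallest p the design allows (exact permutation test of log2(CPM + 1), two-sided p = 0.0286). Adjusted over the 3423 features compared in this way, those below the expression filter with at least 10 reads, every one of the 131 at this smallest p has an adjusted p of 0.747, so that no feature could pass. An edgeR fit without the expression filter called Ldh, with a log2 fold change of -4.78 (SE 1.29, adjusted p = 0.016) whose size depends on the prior count. Of all 17445 features, 2 had no mutant read and at least 13 control reads. They were Ldh and CG34307, which lies outside the window and had 19 control reads. Within the window the next such member after Ldh was CG13285, with 2 control reads.

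**Figure D1:**
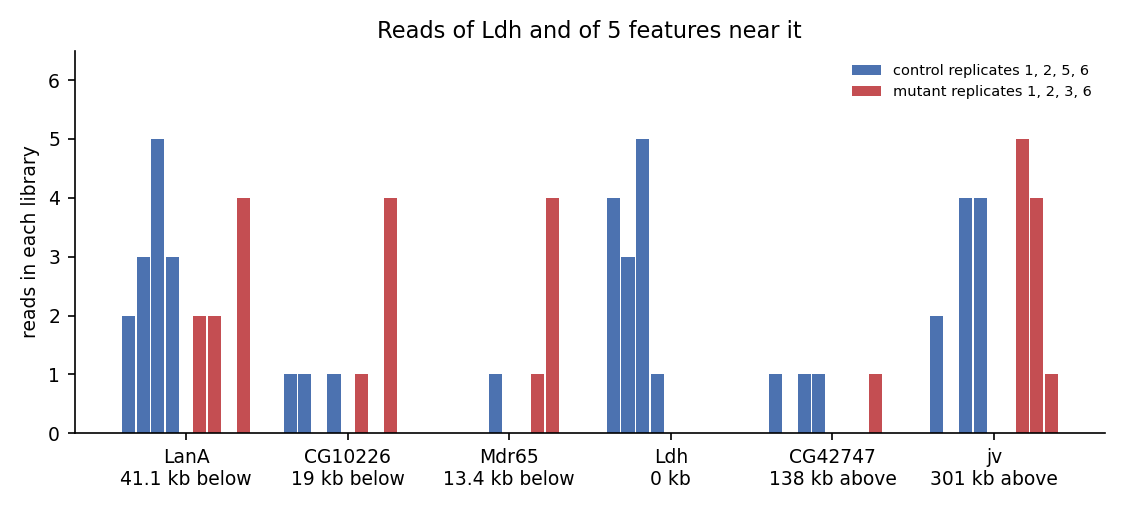
Reads per library (y axis) of Ldh, of the first feature with a read and the first with at least 10 on each side, and of CG10226, ordered by position, with the distance from Ldh under each name (blue bars, control replicates 1, 2, 5 and 6; red bars, mutant replicates 1, 2, 3 and 6; a missing bar is 0 reads). No bar exceeds 5 reads, and Ldh is the feature with no mutant bar.

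The genes next to Ldh could not be compared, because none of them was read. CG10163 lies 345 bp below Ldh and the noncoding gene lncRNA:CR44522 lies 314 bp above it. Both had 0 reads in all 8 libraries. On the lower side, Best2, a bestrophin family chloride channel gene, also had 0 reads, and the first gene with a read was Mdr65, an ABC transporter of the blood-brain barrier, at 13.4 kb. Mdr65 had 0, 1, 4 and 0 reads in mutants 1, 2, 3 and 6 and 0, 0, 0 and 1 in controls 1, 2, 5 and 6. Its neighbour CG10226, a second transporter of that family at 19 kb, had 1, 0, 4 and 0 reads in mutants and 1, 1, 0 and 1 in controls. In both, 4 of the mutant reads came from library 3, and the groups overlapped. Within 50 kb below Ldh, 4 of 9 members had a read, these 2, LanA and BG642312 with 1 read. None of the 5 members within 50 kb above it had any.

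The first gene below Ldh with at least 10 reads was LanA, the laminin alpha chain of basement membranes, at 41.1 kb. It had 2, 2, 0 and 4 reads in mutants and 2, 3, 5 and 3 in controls. The groups overlapped, and the ratio of mutant to control reads per assigned read was 0.574 with an exact 95% interval of 0.206 to 1.49 (exact permutation test, two-sided p = 0.229). Tnpo, a transportin that carries proteins into the nucleus, lay 58.7 kb below, with 1, 0, 2 and 1 reads in mutants and 1, 3, 5 and 0 in controls. Its ratio was 0.414 (0.0932 to 1.48, exact p = 0.514). The intervals of both genes include equal levels and also a drop of more than 2-fold, so a drop of that size in them was not excluded.

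Above Ldh the reads were sparser still. The first 12 features on that side, which include the odorant receptor genes Or65a, Or65b and Or65c, had no reads. The first with a read was CG42747 at 138 kb, with 0, 0, 1 and 0 reads in mutants and 1, 0, 1 and 1 in controls. The first with at least 10 reads was jv at 301 kb, a gene needed for the shape of bristles and hairs. It had 0, 5, 4 and 1 reads in mutants and 2, 0, 4 and 4 in controls, and a ratio of 0.932 (0.348 to 2.5, exact p = 0.886). Further out, lncRNA:CR45417 (3, 3, 3 and 6 reads in mutants, 4, 6, 5 and 2 in controls), dikar (2, 2, 6 and 4; 3, 2, 4 and 4) and velo (3, 1, 4 and 1; 3, 6, 4 and 2) had exact p of 0.571, 0.971 and 0.257. In none of the 3 did the groups separate.

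**Figure D2:**
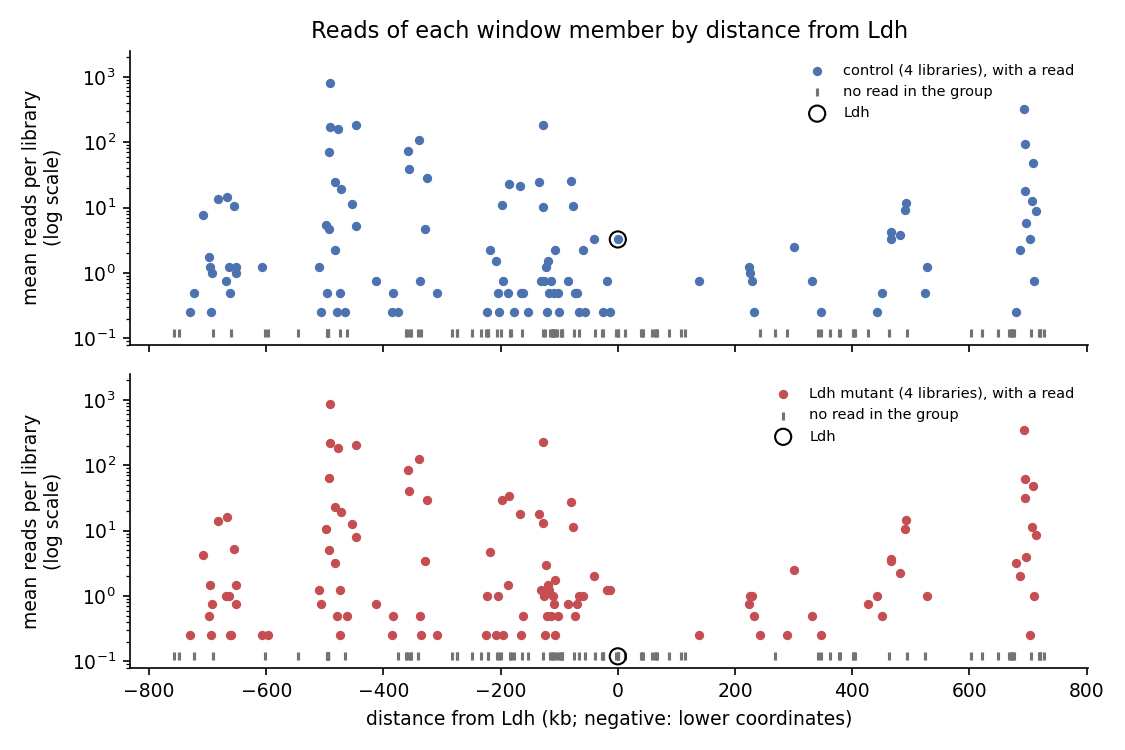
Mean reads per library (y axis, log scale) of every member against its distance from Ldh in kb (x axis, lower coordinates negative), for the 4 control libraries (top) and the 4 mutant libraries (bottom); ticks at the foot mark members with no read in that group, and the circle marks Ldh. Most members with a read have one in both groups, no member within 50 kb above Ldh has a read, and the highest point lies 490 kb below.

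Of the 205 members, 126 had at least 1 read (61.5%, against 65.8% of all features), 55 had at least 10 reads, and 29 passed the expression filter (14.1%, against 14.8% of all features). No read fell on the remaining 79. Both groups had reads for 102 members, only controls for 12 and only mutants for 12. The largest member read in mutants alone was the cuticle pseudogene Lcp65APsi, with 4 reads. Reads were concentrated: the 5 members with the most reads held 63% of the 22428 in the window, and the 29 tested held 95.4%. The 41 members that share exon with an opposite-strand feature held 92.6% of the reads, against 94.2% for features of this kind in the whole series. The window took 0.624% ± 0.0163 of assigned reads in mutants (SD, n = 4) and 0.611% ± 0.0176 in controls (SD, n = 4). The 2 ranges, 0.611% to 0.645% and 0.588% to 0.626%, overlapped.

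Among the 29 tested members, 1 was called by edgeR at an adjusted p under 0.05, Surf1, and it was lower in mutants. Over all 2589 features tested, 3.17% were called, with 1.54% higher and 1.62% lower, so the window's share was close to the background. An edgeR fit without the expression filter called 1.6% of 11473 features and 3 members, Surf1, CG6592 and Ldh. At an unadjusted p under 0.05, 5 members of 29 passed, against a background of 15.4%. The groups did not overlap in 4 members (Surf1, Uqcc1, Ppat-Dpck and CG6602), against a background of 9.54%. The log2 fold change, mutant over control, was above 0 in 20 members and below 0 in 9, with a median of 0.08 and a range from -0.62 to 1.37. Over all features tested it was above 0 in 1337 and below 0 in 1252, with a median of 0.01. On the rest of 3L, 11 of 444 tested features were called, 3 higher and 8 lower, with a median of 0.00.

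**Figure D3:**
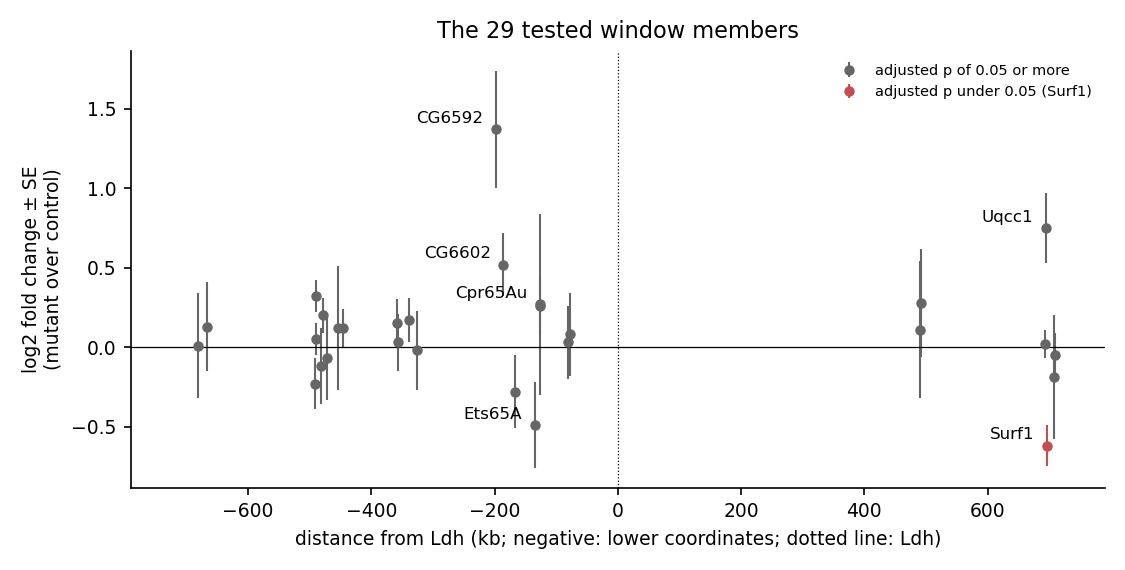
Log2 fold change, mutant over control, with SE bars (y axis) of the 29 tested members against distance from Ldh in kb (x axis; dotted line, Ldh; red, adjusted p under 0.05 by edgeR). Most points lie near 0 on both sides, Surf1 at -0.62 and Uqcc1 at 0.75 lie beside each other, and no tested member is closer than 77.3 kb.

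By distance, no tested member lay within 50 kb of Ldh on either side. Between 50 and 250 kb below, 60 members gave 8 tested and 0 called, with a median log2 fold change of 0.17. Between 250 and 500 kb below, 43 members gave 12 tested and 0 called (median 0.08), and beyond 500 kb, 25 gave 2 tested and 0 called (median 0.07, from -0.16 to 0.22 when 1 library was left out). Above Ldh, the 13 members between 50 and 250 kb gave none tested, the 23 between 250 and 500 kb gave 2 tested and 0 called (median 0.20), and the 26 beyond 500 kb gave 5 tested and 1 called (median -0.05). The called gene thus lay 696 kb from Ldh, in the outermost stretch. The nearest tested genes gave log2 fold changes of 0.08 (SE 0.26) for CG10274 at 77.3 kb and 0.03 (SE 0.23) for CG7376 at 80.2 kb, which overlap each other on opposite strands. Taken 2 SE either way, these run from -0.45 to 0.61 and from -0.42 to 0.49. Sbds, a ribosome maturation factor 490 kb above Ldh and the nearest tested gene on that side, gave 0.11 (SE 0.43).

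Surf1 (FBgn0029117; 3L:6958346-6959586, plus strand) encodes an assembly factor of cytochrome c oxidase, complex IV of the respiratory chain. Mutants 1, 2, 3 and 6 had 57, 74, 58 and 61 reads, and controls 1, 2, 5 and 6 had 80, 95, 110 and 85. Every mutant library was below every control library. The mutant mean was 140 ± 11.6 CPM (SD, n = 4) and the control mean 217 ± 17.0 CPM (SD, n = 4). The log2 fold change, -0.62 (SE 0.13), passed the threshold by edgeR (adjusted p = 0.0141; exact permutation p for this gene alone, 0.0286). The last 33 bp of Surf1 overlap sgl on the other strand, the UDP-glucose dehydrogenase gene needed for proteoglycan synthesis. The feature sgl had 2 to 7 reads in mutants and 4 to 8 in controls, with groups that overlapped. Without control library 2 the call on Surf1 was lost (log2 fold change -0.60, edgeR adjusted p = 0.0527), and without mutant library 3 it was kept (-0.57, adjusted p = 0.0121).

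**Figure D4:**
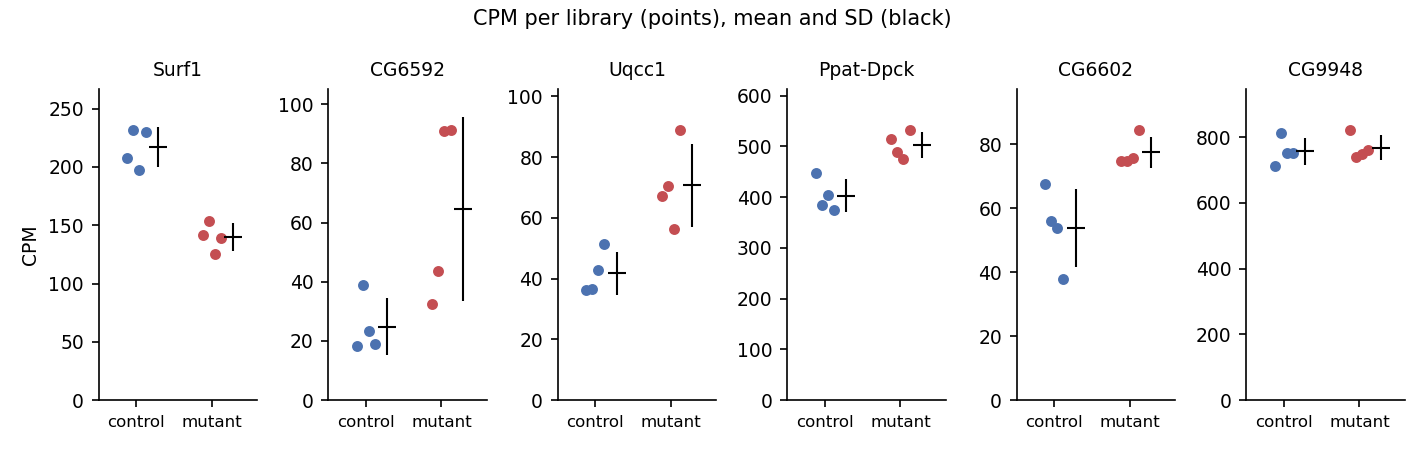
CPM in each library (points; blue, control; red, mutant) with the mean and SD in black (n = 4 each) for Surf1, CG6592, Uqcc1, Ppat-Dpck, CG6602 and CG9948; each y axis starts at 0 and has its own scale. Surf1 is lower in all 4 mutants, Uqcc1, Ppat-Dpck and CG6602 are higher in all 4, CG6592 overlaps between groups, and CG9948 sits at 768 and 757 CPM.

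The gene next to Surf1 had the opposite sign. Uqcc1 (3L:6956946-6958108, minus strand), an assembly factor of cytochrome bc1, complex III, starts 237 bp from the start of Surf1 and runs away from it. Mutants had 27, 34, 26 and 39 reads and controls 14, 15, 24 and 19. The groups did not overlap, with means of 70.8 ± 13.7 and 41.9 ± 7.10 CPM (SD, n = 4 each) and a log2 fold change of 0.75 (SE 0.22), which missed the threshold (edgeR adjusted p = 0.0836). Without mutant library 3 it passed, at 0.85 (adjusted p = 0.034). Uqcc1 shares 428 bp of exon with CG9948 on the other strand. CG9948 held the second most reads of all members, with a mutant mean of 768 ± 38.0 CPM and a control mean of 757 ± 41.4 CPM (SD, n = 4). Its change on the log2 scale was 0.02 (SE 0.09, adjusted p = 0.965 by edgeR). Thus 2 respiratory chain assembly genes that lie side by side gave fold changes of opposite sign, and the feature that overlaps one of them gave a value near 0.

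A further pair of genes in the same stretch separated the groups on few reads. The gene tow at 680 kb above Ldh had 4, 2, 5 and 2 reads in mutants and 0, 1, 0 and 0 in controls. CG10064 at 703 kb had 1, 0, 0 and 0 in mutants and 3, 6, 2 and 2 in controls. They were chosen after their values were seen. Each reached the smallest exact permutation p, 0.0286, with the same adjusted p as Ldh, 0.747. With Ldh, 3 of the 26 members compared on few reads had groups that did not overlap, against 3.83% of all 3423 such features. On 13 against 1 and 1 against 13 reads the ratios were 12.1 (1.82 to 515) and 0.0717 (0.00169 to 0.477). The other 23 members compared in this way overlapped between groups, and Usp47, a ubiquitin protease gene (10, 16, 6 and 11 reads in mutants, 4, 5, 9 and 4 in controls), and TM9SF3 (6, 2, 9 and 4; 12, 7, 14 and 9) had the next smallest exact p, 0.0571.

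The largest fold change among tested members was that of CG6592 (3L:6059658-6061378, plus strand, 198 kb below Ldh), predicted to be a serine protease. Mutants had 13, 21, 42 and 40 reads and controls 7, 16, 13 and 7. In CPM, mutants 2, 3 and 6 were above all controls, and mutant 1 was below control 2. The means were 64.6 ± 31.0 and 24.9 ± 9.70 CPM (SD, n = 4 each), which gave a log2 fold change of 1.37 (SE 0.37) that missed the threshold (edgeR adjusted p = 0.0669). It was past the threshold by DESeq2 (adjusted p = 0.0347) and in 4 other settings. CG6592 overlaps 7 bp of CG10472, which had 4 reads over the 8 libraries. The Jonah 65A proteases nearby, which digest protein in the larval midgut, were barely read. Of 5 members 4 had a read, 46 reads in all, and none was tested. Jon65Aiv had 2, 3, 12 and 2 reads in mutants and 0, 0, 4 and 5 in controls (ratio 1.97, 0.849 to 4.94; exact p = 0.286). Jon65Aiii had 1, 0, 0 and 0 reads in mutants and 1, 1, 2 and 2 in controls, and Jon65Ai had 0, 0, 3 and 1 in mutants and 0, 1, 0 and 1 in controls.

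CG6602, 186 kb below Ldh, had 30, 36, 35 and 37 reads in mutants and 26, 23, 30 and 14 in controls. No mutant library was below a control library in CPM, with means of 77.4 ± 4.77 and 53.8 ± 12.2 (SD, n = 4 each). The log2 fold change of 0.52 (SE 0.20) missed the threshold (edgeR adjusted p = 0.191). Its opposite-strand partner CG13295, which shares 50 bp, had 0 reads. Ets65A, a transcription factor of the ETS family 135 kb below, had 17, 20, 19 and 15 reads in mutants and 25, 27, 35 and 10 in controls. Control 6 lay below every mutant library and the other 3 controls above, and the log2 fold change of -0.49 (SE 0.27) missed the threshold (edgeR adjusted p = 0.422).

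The member with the most reads lies in an overlapping set 490 kb below Ldh. The antisense gene asRNA:CR45831 held 6681 reads, 29.8% of the window, with 783, 856, 1003 and 823 reads in mutants and 686, 795, 957 and 778 in controls. The log2 ratio of mutant to control was 0.05 (SE 0.10, adjusted p = 0.904 by edgeR). It lies over Ppat-Dpck, whose protein carries out the last steps of coenzyme A synthesis. Ppat-Dpck had 206, 235, 220 and 233 reads in mutants and 172, 158, 226 and 138 in controls. In CPM the groups did not overlap, with means of 502 ± 25.6 and 403 ± 32.1 (SD, n = 4 each), and the log2 fold change of 0.32 (SE 0.10) missed the threshold (edgeR adjusted p = 0.127). Txl, a thioredoxin-like gene that overlaps the other end of Ppat-Dpck by 68 bp, gave -0.23 (SE 0.16, edgeR adjusted p = 0.587). Of these 3 features that share exon, the middle one separated the groups without being called.

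No antisense feature was called. Of the 33 antisense and long noncoding RNA features, 9 had a read, 10722 reads in all, and 4 were tested, with 0 called and a median log2 fold change of 0.19. Each of the 4 lies over exon of a protein-coding gene. asRNA:CR46005, which covers the cuticle genes Lcp65Ag3 and Cpr65Au and the gene l(3)mbn, gave 513 ± 151 and 429 ± 42.4 CPM in mutants and controls (SD, n = 4 each), 0.26 on the log2 scale (edgeR adjusted p = 0.563). asRNA:CR45026, opposite the peptidoglycan recognition gene PGRP-LD and Pmi, gave 413 ± 12.3 and 359 ± 33.2 CPM, 0.20 (edgeR adjusted p = 0.413). asRNA:CR45167, opposite the phosphate transporter gene PXo, gave 277 ± 31.1 and 246 ± 34.0 CPM, 0.17 (edgeR adjusted p = 0.658). The partners themselves were at 7 or fewer reads in total for PGRP-LD, Pmi and PXo, while Cpr65Au reached 93. The spindle checkpoint gene mad2, which also was among the 5 members with the most reads, gave 458 ± 44.2 and 423 ± 41.9 CPM and 0.12 (edgeR adjusted p = 0.732). It overlaps kri, with 32 mutant and 21 control reads, by 94 bp.

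The cuticle protein cluster, 97.5 to 128 kb below Ldh, is the largest gene family of the window. Of its 19 members, 13 had a read, 172 reads in all, and only Cpr65Au was tested, a feature that shares 491 bp with asRNA:CR46005. Cpr65Au had 13, 24, 8 and 7 reads in mutants and 17, 18, 5 and 1 in controls, so that within each group the highest library had at least 3 times the reads of the lowest. Its log2 fold change of 0.27 (SE 0.57) was not called (edgeR adjusted p = 0.901). Lcp65Af, a larval cuticle protein gene, had 3, 5, 2 and 2 reads in mutants and 1, 2, 1 and 1 in controls (ratio 2.24, 0.734 to 8.11; exact p = 0.0857). Acp65Aa, the adult cuticle gene of the cluster, had 1, 1, 3 and 2 reads in mutants and 3, 3, 2 and 1 in controls (exact p = 0.429). Cpr65Av had 12 reads and the other 15 members 0 to 7. No member of the cluster was called.

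The remaining lists gave little to compare. The 3 odorant receptor genes had no reads. The 1 heat shock gene, DnaJ-1, had 4 reads. Of 5 small nucleolar RNA genes 1 was read, with 2 reads over the 8 libraries. The window has no gene named as a cytosolic or mitochondrial ribosomal protein or as a subunit of the respiratory chain complexes. The tested genes not yet named included the ecdysone synthesis gene spo (0.13; opposite l(3)psg2), the Ran exchange factor gene Rcc1 (-0.02), QC, a glutaminyl cyclase (0.03; opposite CG32409), vito, a nucleolar protein (-0.12), Cralbp (-0.07; opposite Pmi and PGRP-LD) and the ESCRT gene Ist1 (0.28), all as log2 fold changes. None of these was called by edgeR, and their adjusted p ranged from 0.792 for Ist1 to 0.991 for Rcc1.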

How the data were processed

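Raw counts of reads per FlyBase gene were deposited for each library, not normalized. Per the submitters' processing notes, the tools were HTSeq 0.6.1p1, TopHat2 2.0.13 with Bowtie2 2.2.4, and Trimmomatic 0.32, besides CASAVA and DESeq2. Not given in the sources used here were the build, the annotation, the strand setting and the library kit. The methods of the paper describe other samples and another route, so the sample labels were followed. Each file also has 5 summary lines that name no gene. These held 98.4% to 98.8% of a file's counts and entered neither library sizes nor tests.

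Positions came from the Ensembl release 115 annotation of BDGP6, which placed 17151 of the 17445 features. It lists 209 genes in the window, of which 4 were not among the features counted. The members and lists were chosen with earlier results of these data known.

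The main test was edgeR's quasi-likelihood test (version 4.0.16, R 4.3.3) with TMM scaling, the default expression filter, no robust estimation and no covariates. Benjamini-Hochberg adjustment ran over all 2589 features tested, with calls at an adjusted p under 0.05. Features below the filter with at least 10 reads were compared by exact two-sided permutation of log2(CPM + 1) over 70 ordered splits. Their p-values were adjusted over all 3423 such features and not, as first planned, over the few compared. Ratios of reads per assigned read carry exact binomial 95% intervals. Intervals cover counting error only, and the floor of 3 reads for Ldh covers that of the mutant count alone. Since no replicate pair was as alike as sampling noise alone would make it (chi-square over degrees of freedom, 1.63 to 10.5), all 8 libraries were kept. Control pairs gave 1.63 to 2.83 and mutant pairs 2.66 to 10.5, with pairs that include mutant 3 at 7.01 to 10.5. The part of this unequal spread in the p-values was not tested.

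The named features were Ldh, the features that abut it, the 5 nearest on each side with at least 10 reads, called members, the 10 smallest unadjusted p, the 5 with the most reads, and up to 3 of each family list. Others that are named were chosen after their values were seen. Alternatives were DESeq2 1.42.0 and its size factors, upper-quartile scaling, library totals, limma-voom (limma 3.58.1), robust estimation, other filters, thresholds and pseudocounts, a replicate block, features without opposite-strand exon, genes overlapping the window, and leaving out each library.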

Additional observations from a re-analysis of the deposited data

Results flagged for a closer look

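In each of 62 sets, a named feature in 1 group of 4 libraries, the highest and lowest library were compared with the others by Dixon's 95% limit on the gap to the nearest library over the whole range. Of these, 9 had a library set apart, against about 3.1 for independent, normally distributed values, which low counts are not. A set with reads in 1 library only passes the limit whatever its value, as for Jon65Aiii in mutants and DnaJ-1 in both groups.

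Ets65A was low in mutant 6 (34.3 CPM, the other mutants at 41.1 to 42.4) and in control 6 (27.1 CPM, the others at 62.7 to 65.9). CG6602 was high in mutant 6, at 84.6 CPM against 74.7 to 75.7. The antisense feature asRNA:CR45167 was low in control 2, at 195 CPM against 262 to 265.

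The other 5 rest on few reads. Jon65Aiv was at 26.0 CPM in mutant 3 against 4.57 to 6.22, Jon65Aiii at 2.49 CPM in mutant 1 against 0, and lncRNA:CR45417 at 13.7 CPM in mutant 6 against 6.22 to 7.48. DnaJ-1 was at 6.49 CPM in mutant 3 and at 1.79 CPM in control 5, with 0 in the other libraries of each group.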

How the results depend on the processing

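Of 306 recomputed log2 fold changes of the 17 named tested features, 280 kept their direction and their side of the threshold. Members called, 1 as reported, numbered 3 with a filter of 1 CPM in 4 libraries, 3 with no filter, 2 by DESeq2, 2 with robust estimation, 0 without opposite-strand features, 0 at an adjusted p under 0.01 and 3 at one under 0.1. The added calls were CG6592 in each of the 5 settings with more than 1 call, Ldh with no filter and with 1 CPM (edgeR adjusted p = 0.016 and 0.0356), and Uqcc1 at the looser threshold. The 0 without opposite-strand features comes from leaving out Surf1 itself, for its 33 bp shared with sgl, and not from a new estimate of it. Leaving out 1 library gave 0 to 2 calls, with 0 without control 2 and 2 without mutant 1 or mutant 3. All features called, 82 as reported, numbered 184 with no filter (113 higher, 71 lower), 49 and 130 at the stricter and looser thresholds, and 57 to 164 without 1 library (164 without mutant 3). Library totals gave 38 higher and 63 lower and the omission of mutant 1 gave 48 and 31, against 40 and 42. No scaling moved the median of all features by over 0.1.

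The numbers 1, 2 and 6 occur in both groups, and the labels do not say what they stand for. Deviations of same-numbered libraries from their group means had r = -0.106, 0.021 and -0.022, and those of different-numbered libraries -0.090 to 0.141. Whether same-numbered samples share a culture or batch was not tested. With the replicate block, 138 features were called, against 118 on the same 6 libraries without it, and 1 member, Surf1, in both.

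Surf1 ranged from -0.67 to -0.57 without 1 library and lost its call without control 2. Signs turned for features that were not called. asRNA:CR45831 gave -0.00 with library totals, -0.06 with and without the block and -0.01 at the lowest without 1 library. Sbds gave -0.13 by limma-voom, -0.19 on the 6 libraries, -0.24 with the block, and -0.23 to 0.44 without 1 library. CG9948 gave -0.03 with library totals, -0.00 with upper-quartile scaling and -0.01 to 0.05 without 1 library, and CG7376 -0.01 and -0.11 to 0.20. Cpr65Au ran from -0.16 to 0.69 without 1 library. Among features on few reads, leaving out 1 library gave -0.31 to 0.17 for dikar, -0.95 to 0.53 for jv, -0.42 to 0.00 for lncRNA:CR45417 and -1.40 to -0.29 for LanA, whose exact permutation p fell to 0.0286 without mutant 6. Medians by distance rest on few genes. Without opposite-strand features, 1 tested member, Ets65A, is left 50 to 250 kb below (-0.49), and 3 are left 250 to 500 kb below (median -0.02). Leaving out 1 library gave medians of -0.16 to 0.22 over 500 kb below, 0.08 to 0.36 between 250 and 500 kb above, and -0.09 to 0.01 over 500 kb above, where no filter gave -0.21. Only the moves from leaving features out have a known cause. That of the others was not tested.

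Few assigned reads limit what can be said near Ldh. No member within 50 kb passed the filter, and 79 members had no reads. The intervals of LanA and Tnpo include a drop of more than 2-fold.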
